A study of Mus musculus with 2 samples.

Results

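A set of 10 genes, 7 immediate early genes and 3 Klf genes, was followed by symbol among the 32285 features of the count matrices: Fos, Fosb, Jun, Junb, Egr1, Ier2, Atf3, Klf2, Klf4 and Klf6. All 10 were found in both matrices, and all 10 reached the level of 5 CPM (defined below) in at least 1 library. The first library came from the mouse embryonic stem cell line D3 with a knockout of Zbtb16, a zinc finger transcription factor, and the second from D3 labelled wild type, here called the control. Both were taken on day 6 of differentiation towards cardiomyocytes and read by droplet single-cell RNA sequencing, with the stated aim of finding the subpopulation that is regulated by Zbtb16 at what the design text calls the CP stage. There was 1 library per genotype, and the sources used here do not say how many knockout clones it holds. No difference between the libraries therefore has a replicate check, none was tested, and every interval given is a 95% interval that covers counting error only.

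Immediate early genes are transcribed within minutes of a signal, by factors already present in the cell. FOS proteins pair with JUN proteins to form AP-1, EGR1 is a zinc finger factor downstream of ERK and serum response factor, and release of cells from a culture with enzymes is itself known to induce several of these genes. KLF factors bind GC-rich promoter elements. KLF2 is known both in endothelium, where shear stress and the MEK5, ERK5 and MEF2 pathway induce it, and in naive embryonic stem cells, where KLF2 and KLF4 help to hold pluripotency.

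A UMI is a tag that marks 1 captured RNA molecule, and the level of a gene is given as CPM, its UMIs over all UMIs of the same cells on the usual counts-per-million scale. Barcodes with at least 15000 UMIs and at most 10% mitochondrial UMIs were taken as cells, which left 9449 knockout cells (median depth 30513 UMIs) and 6354 control cells (median depth 37324 UMIs). The median mitochondrial share was 5.02% in knockout cells and 4.22% in control cells, and 16 cell barcodes occurred in both libraries. Zbtb16 itself stood at 0.994 CPM in knockout cells and 22.2 CPM in control cells. Which part of Zbtb16 was deleted is not stated in the sources used here, so a count over the whole gene checks the label only in part. A difference is called higher or lower where the ratio of CPM plus 1 reached 1.5-fold, which stands in for a test. Shares of cells with a UMI were read after each cell had been thinned at random to 15000 UMIs, so that depth was equal in all cells.

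Promoters are shown for 5 genes. By the levels given below, Klf2, Jun and Atf3 were higher in endothelial-like cells than in mesenchymal-gated cells, and Fos and Fosb were lower. The higher ones shown are those with a match to the MEF2 motif, so the choice does not follow level alone. Junb, also higher, is not shown. RefSeq promoters on assembly GRCm38.p6 were matched for 8 of the 10 genes by symbol, and Egr1 and Ier2 had none. The submitters' processing notes name a later assembly, so these coordinates apply only to these sequences. Each line gives the 150 bases before the start of the gene, 5′ to 3′ on the strand of the gene, with matches to the MEF2 motif or to TGACG, read on either strand, in capitals.
Klf2, chr8:72318912-72319061, plus strand: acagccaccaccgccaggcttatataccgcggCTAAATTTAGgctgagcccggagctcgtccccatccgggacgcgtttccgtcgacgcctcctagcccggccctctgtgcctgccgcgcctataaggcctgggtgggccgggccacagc
Jun, chr4:95052223-95052372, minus strand: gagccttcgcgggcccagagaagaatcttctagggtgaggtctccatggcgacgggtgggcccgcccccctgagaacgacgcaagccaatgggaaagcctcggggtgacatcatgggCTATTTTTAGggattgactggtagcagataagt
Atf3, chr1:191183334-191183483, minus strand: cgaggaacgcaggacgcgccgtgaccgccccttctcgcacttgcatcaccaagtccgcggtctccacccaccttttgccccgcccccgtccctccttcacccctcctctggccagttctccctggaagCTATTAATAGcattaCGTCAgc
Fos, chr12:85473740-85473889, plus strand: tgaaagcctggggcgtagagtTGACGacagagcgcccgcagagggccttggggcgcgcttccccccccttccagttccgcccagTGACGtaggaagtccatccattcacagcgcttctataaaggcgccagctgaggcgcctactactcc
Fosb, chr7:19310046-19310195, minus strand: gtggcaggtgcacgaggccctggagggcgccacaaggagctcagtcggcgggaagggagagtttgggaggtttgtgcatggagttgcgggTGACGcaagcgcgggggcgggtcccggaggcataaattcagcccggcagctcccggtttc
The capitals are a MEF2 match in Klf2 (118 to 109 bases before the start) and in Jun (33 to 24 bases before it). In Atf3 they are a MEF2 match (22 to 13 bases before the start) and, next to it, TGACG on the other strand, and in Fos and Fosb they are TGACG. Both strands of the 250 bases before the start were searched. The MEF2 motif occurred in 3 of the 8 promoters, namely Jun, Atf3 and Klf2, and in 2.92% of 32851 RefSeq promoters. TGACG on either strand, which is part of the CREB and ATF element, occurred in 6 of the 8 (Fos, Fosb, Junb, Atf3, Klf2 and Klf4) and in 17.8% of all promoters. The Klf2 match lies 241 to 237 bases before the start, outside the stretch shown. Junb, which was also higher in endothelial-like cells, had no MEF2 match in this window. The full element TGACGTCA (1.55% of all promoters), the AP-1 element TGANTCA (6.75%) and the CArG box of serum response factor (1.47%) occurred in none of the 8 within this window. Ier2, also higher in endothelial-like cells, and Egr1, lower there, were not searched. An element farther upstream would be missed. A match is a run of letters and not a shown binding site, and no link between a match and a level was tested. MEF2C is a MEF2 factor of the heart and the vessels, and its gene stood at 38.2 CPM in knockout cells against 292 CPM in control cells, while in endothelial-like cells it stood at 223 CPM in the knockout library and 209 CPM in the control library. In mesenchymal-gated cells Mef2c stood at 21.1 CPM in the knockout library and 89.4 CPM in the control library, and in endoderm-gated cells at 1.29 and 16.5 CPM. Over all cells Mef2a (52.4 CPM in knockout cells, 40.3 CPM in control cells) and Mef2d (20.8 and 17.7 CPM) stayed within 1.5-fold.

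The first comparison asked how the 10 genes stood in all cells of the knockout library against all cells of the control library. Klf6 and Klf2 were higher in the knockout, and Fosb, Ier2, Egr1 and Junb were lower, while Fos, Jun, Atf3 and Klf4 stayed within 1.5-fold. That is 2 of 10 genes higher, where 12.7% of the 10289 genes that reached 5 CPM in a library were higher, and 4 of 10 lower, where 6.75% were lower. The median log2 ratio was -0.34 over the 10 genes and 0.02 over all genes tested. In sums over all cells, more cells of a type and more RNA per cell cannot be told apart, and the makeup of the cultures differed, as given with the states below. The UMIs of the 10 genes together came to 554 CPM in the knockout (551 to 556) and 553 CPM in the control (550 to 556), so the sum was nearly equal while its members moved in opposite directions.

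Of the FOS family, whose proteins form AP-1 only with a partner, Fosb had the larger difference. Fosb stood at 18 CPM in knockout cells (17.5 to 18.4) and 51.3 CPM in control cells (50.5 to 52.1), a log2 ratio of -1.46. After thinning, 20.1% of knockout cells and 45.1% of control cells had a Fosb UMI, so the shares of cells with a detected transcript differed as well. Fos stood at 29.5 CPM in knockout cells (28.9 to 30.1) and 43.8 CPM in control cells (43.0 to 44.6), a log2 ratio of -0.55 that falls just short of 1.5-fold. Fos UMIs were found in 29.6% of thinned knockout cells and 41.2% of thinned control cells.

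Of the JUN family, the DNA-binding partners of FOS, Jun did not reach 1.5-fold and Junb did. Jun had 126 CPM in knockout cells (125 to 127) and 117 CPM in control cells (116 to 118), a log2 ratio of 0.10, with a UMI in 72.2% of thinned knockout cells and 68.6% of thinned control cells. Junb had 20.4 CPM in knockout cells (19.9 to 20.8) and 31.1 CPM in control cells (30.5 to 31.7), a log2 ratio of -0.59 that only just passes 1.5-fold. It is short and rich in GC, with 1809 bases and 62.6% GC against medians of 3162.5 bases and 49.8% GC, and ratios over all genes rose with transcript length (Spearman rho 0.45 across 10286 genes, which are not independent) and fell with GC content (rho -0.28). Corrected for both trends, the Junb log2 ratio was -0.27. Junb lies opposite Prdx2 and Jun opposite Junos in the annotation, and since the sources used here do not say whether counting used the strand, reads of overlapping pairs cannot be told apart. Prdx2 stood at 496 CPM in knockout cells and 690 CPM in control cells, and Junos at 0.778 CPM in knockout cells and 0.885 CPM in control cells.

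Among the other early genes, Ier2, a small nuclear protein induced early by growth factors, stood at 62.4 CPM in knockout cells (61.5 to 63.2) and 117 CPM in control cells (116 to 119), a log2 ratio of -0.90. It was detected in 52.5% of thinned knockout cells and 77.0% of thinned control cells. Its transcript is also short and GC-rich (1522 bases, 60.9% GC), and the corrected ratio of -0.56 is short of 1.5-fold. Egr1 had 52.0 CPM in knockout cells (51.2 to 52.7) and 80.8 CPM in control cells (79.7 to 81.8), a log2 ratio of -0.63, with a UMI in 43.6% of thinned knockout cells and 57.9% of thinned control cells. Atf3, a stress-induced factor that pairs with JUN proteins, had 4.96 CPM in knockout cells (4.73 to 5.20) and 5.53 CPM in control cells (5.26 to 5.80), a log2 ratio of -0.13.

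The KLF genes split. Klf6, a broadly expressed and injury-induced member, had 206 CPM in knockout cells (204 to 207) and 80.3 CPM in control cells (79.3 to 81.4), a log2 ratio of 1.35, and was found in 87.7% of thinned knockout cells against 57.0% of thinned control cells. Klf2 had 19.11 CPM in knockout cells (18.7 to 19.6) and 11.3 CPM in control cells (10.9 to 11.7), a log2 ratio of 0.71, but nearly equal shares of cells held a UMI, 6.66% of thinned knockout cells and 6.47% of thinned control cells. Klf4, a reprogramming factor and a relative of Klf2, had 15.7 CPM in knockout cells (15.3 to 16.2) and 14.3 CPM in control cells (13.9 to 14.8), a log2 ratio of 0.13. Without endothelial-gated and pluripotent-gated cells the Klf2 log2 ratio was 0.11.

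**Figure D1:**
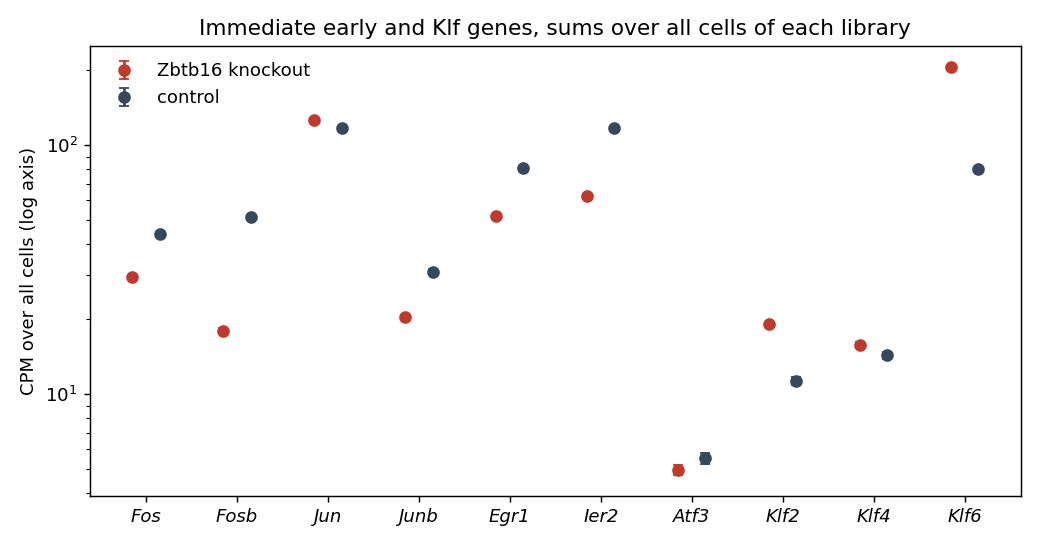
CPM of the 10 genes over all cells of each library on a log axis, the Zbtb16 knockout left of the control, with exact Poisson 95% intervals that are often smaller than the points. Klf6 (206 CPM in the knockout, 80.3 CPM in the control) and Fosb (18 CPM in the knockout, 51.3 CPM in the control) stand farthest apart.

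Depth and mitochondrial share differed between the libraries, and levels were read within each library by tertiles of these measures. Klf6 stood at 209, 205 and 205 CPM in knockout cells from the lowest to the highest tertile of UMIs per cell, and at 57.1, 79.5 and 88.3 CPM in control cells. Fosb stood at 16.5, 17.8 and 18.7 CPM in knockout cells and at 63.0, 53.6 and 46.3 CPM in control cells over the same tertiles. For both genes every knockout tertile lay on the same side of every control tertile. Klf2 was higher in deeper cells in both libraries, with 7.69, 12.5 and 27.1 CPM in knockout cells and 5.78, 6.51 and 15.5 CPM in control cells. Over tertiles of mitochondrial share Egr1 stood at 47.1, 51.3 and 59.1 CPM in knockout cells and 74.6, 84.2 and 84.7 CPM in control cells, and Ier2 at 70.1, 59.0 and 56.2 CPM in knockout cells and 124, 118 and 108 CPM in control cells. Both genes were lower in every knockout tertile than in every control tertile.

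The second comparison asked in which cell states each gene was found. A cell was placed in a state where the summed CPM of the markers of that state passed a limit, at least 3 markers had a UMI and no other gate was passed. None of the 10 genes was a marker. The endothelial gate took 401 knockout cells (4.24%) and 272 control cells (4.28%), the pluripotent gate 193 knockout cells and 23 control cells, and the endoderm gate 182 knockout cells and 93 control cells. Within 20% of the endothelial limit lay 122 knockout cells and 31 control cells, so the edge of that gate was more crowded in the knockout library. The cardiomyocyte gate took 26 knockout cells and 1477 control cells, the haematopoietic gate 28 knockout cells and 0 control cells (which allows up to 0.0580% of control cells), and the mesenchymal gate 6086 knockout cells and 1812 control cells. A further 2476 knockout cells and 2462 control cells passed no gate and are called ungated, and 57 knockout cells and 215 control cells passed more than 1 gate and were left out.

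Genes that the gates did not use were checked in the gated cells. Kdr, the main VEGF receptor, stood at 545 CPM in endothelial-gated knockout cells against 32.9 CPM in the rest, and at 304 CPM in endothelial-gated control cells against 13.0 CPM in the rest, and the endothelial factor Erg stood at 70.3 CPM against 0.835 CPM in the knockout library and 50.9 CPM against 0.467 CPM in the control library. Sox2, a pluripotency and neural factor, stood at 256 CPM in pluripotent-gated knockout cells against 16.5 CPM in the rest and at 309 CPM in pluripotent-gated control cells against 2.21 CPM in the rest. The genes checked for the mesenchymal gate were split in the control library, so the gate is weak there. Twist1 stood at 207 CPM inside it and 307 CPM outside it, and Fbn1 at 69.0 CPM inside and 69.5 CPM outside. Fn1 (511 CPM inside, 303 CPM outside) and Cdh11 (75.9 CPM inside, 29.6 CPM outside) were higher inside. In the knockout library Fn1, Twist1, Cdh11 and Fbn1 were each higher inside, Twist1 by little (141 CPM against 133 CPM). This gate is a cut on the summed level of Postn, Col1a1, Col1a2, Col3a1, Dcn, Lum, Pdgfra and Prrx1. Within 20% of its limit lay 1311 knockout cells and 1012 control cells, and the gate serves below as a common reference of low endothelial content. Of 5 neural markers 1 reached 5 CPM in endothelial-gated cells, with a summed level of 104 CPM in knockout cells and 96.0 CPM in control cells. Of 5 macrophage and monocyte markers 0 reached it, with a summed level of 4.64 CPM in knockout cells and 3.78 CPM in control cells and with Ptprc at 0 in both.

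Klf2 was concentrated in endothelial-like and pluripotent-gated cells. It stood at 160 CPM in endothelial-gated knockout cells (154 to 166) against 2.54 CPM in mesenchymal-gated knockout cells (2.33 to 2.76), a ratio of 63.0 (57.5 to 69.2). In the control library it stood at 104 CPM in endothelial-gated cells (99.5 to 109) against 2.44 CPM in mesenchymal-gated cells (2.12 to 2.80), a ratio of 42.7 (36.9 to 49.6). Pluripotent-gated cells had more still, 243 CPM in the knockout library (233 to 253) and 354 CPM in the control library (329 to 381, 23 cells), and the knockout ratio to mesenchymal-gated cells was 95.6. The order of levels was the same in both libraries for the top places, pluripotent above endothelial above all other gated states. Below them came 8.42 CPM in endoderm-gated knockout cells (6.72 to 10.4) and 3.48 CPM in endoderm-gated control cells (2.20 to 5.21), and 4.27 CPM in the 26 cardiomyocyte-gated knockout cells (1.39 to 9.96) and 4.17 CPM in cardiomyocyte-gated control cells (3.66 to 4.73). The endoderm and cardiomyocyte levels do not differ beyond counting error in the control library, and neither do the endoderm and mesenchymal levels there.

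After thinning, 55.4% of endothelial-gated knockout cells (50.3 to 60.3) and 53.3% of endothelial-gated control cells (47.2 to 59.4) had a Klf2 UMI, against 2.99% of mesenchymal-gated knockout cells and 3.59% of mesenchymal-gated control cells at the same depth. In pluripotent-gated cells the share was 54.9% in the knockout library (47.6 to 62.1) and 52.2% in the control library (30.6 to 73.2). Their higher Klf2 level thus did not come with a larger share of cells. The mesenchymal share serves as a reference only, and how much of it is free RNA was not tested. Median depth before thinning was 38689 UMIs in endothelial-gated knockout cells and 52088.5 in endothelial-gated control cells, against 28859.5 in mesenchymal-gated knockout cells and 37434 in mesenchymal-gated control cells. Endothelial-gated and pluripotent-gated cells together made up 6.29% of knockout cells and 4.64% of control cells and held 83.2% of Klf2 UMIs in the knockout library and 73.5% in the control library. Counts were uneven within the gate too: the variance of thinned Klf2 counts was 7.05 times the mean in endothelial-gated knockout cells and 3.49 times in endothelial-gated control cells. Over all cells it was 8.46 times in knockout cells and 4.76 times in control cells, where the median over genes of at least 5 CPM was 1.08 in the knockout library and 1.07 in the control library.

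Over all 10 genes, endothelial-gated cells were high in some and low in others relative to mesenchymal-gated cells. In the knockout library 5 of the 10 were higher in endothelial-gated cells and 4 lower, where 13.5% of 10306 genes tested were higher and 21.9% lower. In the control library 6 were higher and 3 lower, where 12.5% of 10302 genes were higher and 20.3% lower. Atf3, Jun, Junb, Ier2 and Klf2 were higher in both libraries, and Fos, Fosb and Egr1 were lower in both. Klf6 was lower in the knockout library alone and Klf4 was higher in the control library alone, where Klf4 had a log2 ratio of 0.17 in the knockout library and 0.93 in the control library, differences that were not tested.

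Atf3 stood at 31.2 CPM in endothelial-gated knockout cells (28.8 to 33.8) against 2.34 CPM in mesenchymal-gated knockout cells (2.13 to 2.55), a ratio of 13.4. In the control library it stood at 34.0 CPM in endothelial-gated cells (31.2 to 36.9) against 3.04 CPM in mesenchymal-gated cells (2.68 to 3.44), a ratio of 11.2. A little over 1 in 3 thinned endothelial-gated cells had an Atf3 UMI, 37.9% in the knockout library and 37.5% in the control library. Endothelial-gated cells held 36.0% of Atf3 UMIs in the knockout library and 34.5% in the control library.

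The JUN genes and Ier2 were high in endothelial-gated cells as well. Jun stood at 265 CPM in endothelial-gated knockout cells against 128 CPM in mesenchymal-gated knockout cells, and at 340 CPM in endothelial-gated control cells against 107 CPM in mesenchymal-gated control cells. Junb stood at 49.9 CPM in endothelial-gated against 16.6 CPM in mesenchymal-gated knockout cells, and at 82.1 CPM in endothelial-gated against 23.1 CPM in mesenchymal-gated control cells. Ier2 stood at 170 CPM in endothelial-gated knockout cells against 50.6 CPM in mesenchymal-gated ones, and at 223 CPM in endothelial-gated control cells against 84.9 CPM in mesenchymal-gated ones. Over the gated states Jun and Ier2 had their highest level in endothelial-gated cells in both libraries. Junb had its highest level in endoderm-gated cells in the knockout library (72.7 CPM) and in endothelial-gated cells in the control library. Atf3 was also high in the 26 cardiomyocyte-gated knockout cells (38.4 CPM, 28.0 to 51.4), which overlaps the endothelial level in counting error. Smooth muscle markers summed to 6614 CPM in those cells (4 of 4 at 5 CPM or more) and 1500 CPM in cardiomyocyte-gated control cells (3 of 4). The gate itself passed 29 knockout cells before those of more than 1 gate were set aside, and 19 knockout cells lay within 20% of its limit. The part of these in the Atf3 level was not tested.

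The FOS genes and Egr1 ran the other way. Fos stood at 6.63 CPM in endothelial-gated knockout cells (5.54 to 7.87) against 32.1 CPM in mesenchymal-gated knockout cells (31.3 to 32.9), and at 13.2 CPM in endothelial-gated control cells (11.5 to 15) against 40.6 CPM in mesenchymal-gated control cells (39.2 to 42.0). After thinning, Fos UMIs were found in 6.73% of endothelial-gated knockout cells and 12.1% of endothelial-gated control cells, the lowest shares of the states with at least 50 cells in both libraries. Fosb stood at 11.6 CPM in endothelial-gated against 19.9 CPM in mesenchymal-gated knockout cells, and at 18.3 CPM in endothelial-gated against 47.6 CPM in mesenchymal-gated control cells. Egr1 stood at 33.2 CPM in endothelial-gated against 54.4 CPM in mesenchymal-gated knockout cells, and at 31.9 CPM in endothelial-gated against 80.4 CPM in mesenchymal-gated control cells. Fos and Jun, which form AP-1 together, thus stood in opposite order over these states in both libraries.

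In endoderm-gated cells Junb and Atf3 were higher than in mesenchymal-gated cells in both libraries. In the knockout library 6 of the 10 genes (Junb, Egr1, Ier2, Atf3, Klf2 and Klf4) were higher in endoderm-gated than in mesenchymal-gated cells and 0 were lower, where 16.7% of genes tested were higher and 18.5% lower. In the control library 2 were higher (Junb and Atf3) and 1 lower (Fosb), where 14.1% were higher and 16.5% lower. Junb stood at 72.7 CPM in endoderm-gated knockout cells against 16.6 CPM in mesenchymal-gated ones, and at 61.3 CPM in endoderm-gated control cells against 23.1 CPM in mesenchymal-gated ones. Egr1 stood at 106 CPM in endoderm-gated knockout cells and 118 CPM in endoderm-gated control cells, and the control ratio to mesenchymal-gated cells was 1.47. The knockout endoderm-gated cells had the highest median mitochondrial share of the gated states, 6.09% against 4.90% in control endoderm-gated cells, and its part in these levels was not tested.

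Pluripotent-gated knockout cells had low Fos, Fosb and Jun beside their high Klf2. Fosb stood at 4.81 CPM there against 19.9 CPM in mesenchymal-gated cells, Jun at 51.8 CPM against 128 CPM and Fos at 14.4 CPM against 32.1 CPM. With Klf6 (78.0 CPM against 233 CPM) these 4 genes were lower, where 29.3% of genes tested were lower. Klf2, Ier2 and Klf4 were higher, where 22% were higher. The counts are near these shares, and nothing is read from the counts. Junb was within 1.5-fold (18.4 CPM against 16.6 CPM), and Atf3 was under 5 CPM in both (2.51 CPM against 2.34 CPM). Cardiomyocyte-gated control cells had Klf6 at 45.4 CPM against 116 CPM in mesenchymal-gated cells, the 1 gene of the set that was lower there, and Fosb at 67.8 CPM against 47.6 CPM, within 1.5-fold. In that contrast 3 genes were higher (Ier2, Atf3 and Klf4), where 6.86% of genes tested were higher and 6.37% lower. Klf2, at 4.17 CPM in cardiomyocyte-gated and 2.44 CPM in mesenchymal-gated control cells, was under 5 CPM in both and was not counted.

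**Figure D2:**
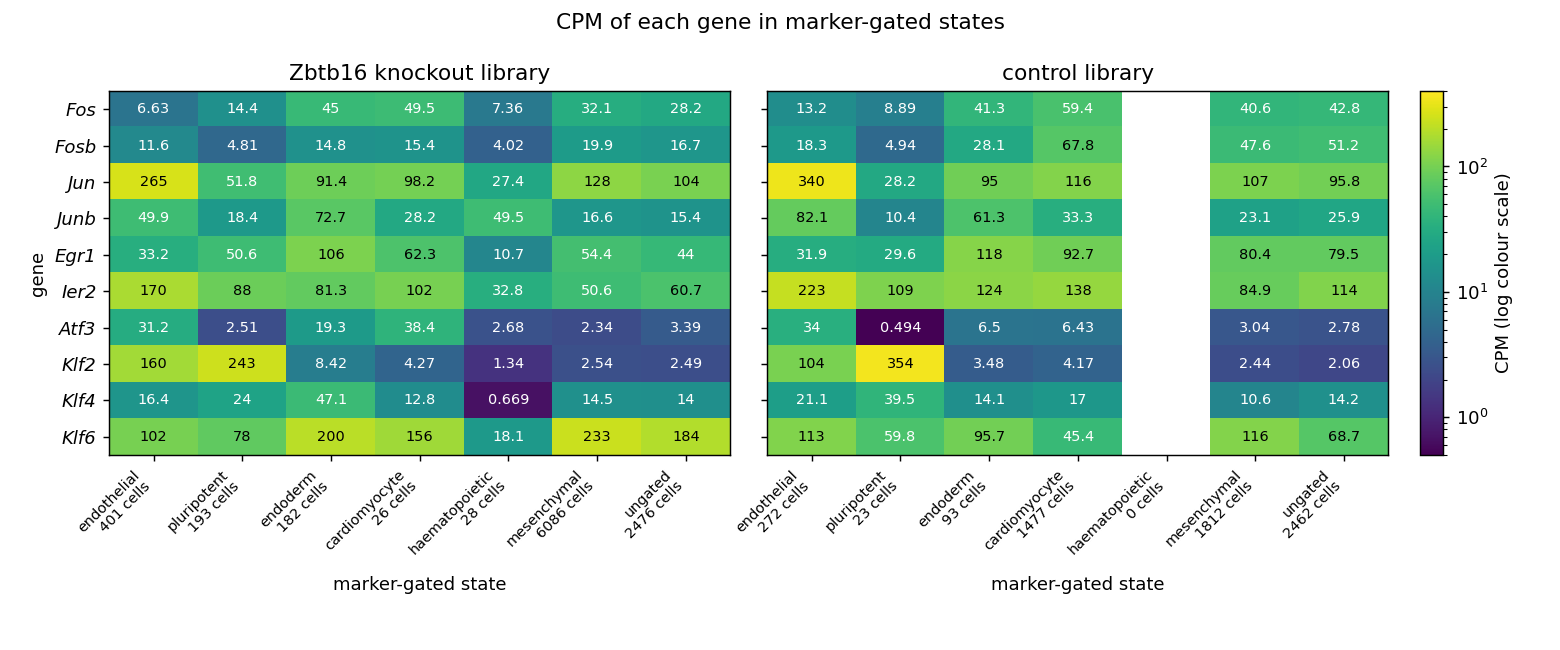
CPM of the 10 genes in marker-gated states and in cells that passed no gate, with the Zbtb16 knockout library on the left and the control library on the right, on a log colour scale. Klf2 is high in endothelial-gated cells (160 CPM in the knockout, 104 CPM in the control) and pluripotent-gated cells (243 CPM in the knockout, 354 CPM in the control), Fos is low in both, and no control cell passed the haematopoietic gate.

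The third comparison set the libraries side by side within the states that had at least 50 cells in each: endothelial, endoderm, mesenchymal and ungated. Fosb was lower in the knockout in all 4 states, and Klf6 was higher in 3 of them, the exception being endothelial-gated cells. The cells within a gate were not alike between the libraries. In mesenchymal-gated cells Fn1 stood at 1138 CPM in the knockout and 511 CPM in the control, and Cdh11 at 189 and 75.9 CPM. Twist1 stood there at 141 and 207 CPM, and Fbn1 at 78.9 and 69.0 CPM. Ungated cells are only those that passed no gate. The part of makeup in these ratios was not tested. The number of genes higher was 1 in endothelial-gated cells (10.7% of all genes tested), 4 in endoderm-gated cells (12.6%), 1 in mesenchymal-gated cells (11.3%) and 1 in ungated cells (12.1%). The number lower was 3 in endothelial-gated cells (6.15% of all genes tested), 2 in endoderm-gated cells (6.95%), 2 in mesenchymal-gated cells (4.58%) and 5 in ungated cells (7.04%).

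Klf6 stood at 233 CPM in mesenchymal-gated knockout cells (231 to 235) and 116 CPM in mesenchymal-gated control cells (113 to 118), a log2 ratio of 1.00. In ungated cells it stood at 184 CPM in the knockout library and 68.7 CPM in the control library, a log2 ratio of 1.40. Endothelial-gated cells had 102 CPM in the knockout library (97.7 to 107) and 113 CPM in the control library (108 to 118), a log2 ratio of -0.15. Set against mesenchymal-gated cells of the same library, the endothelial level of Klf6 was 0.439 times as high in the knockout (0.419 to 0.459) and 0.979 times in the control (0.931 to 1.03). Corrected for length and GC content, the all-cell log2 ratio was 1.16 for Klf6 and 1.02 for Klf2.

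Fosb stood at 19.9 CPM in mesenchymal-gated knockout cells and 47.6 CPM in mesenchymal-gated control cells (log2 ratio -1.22), and at 16.7 CPM in ungated knockout cells and 51.2 CPM in ungated control cells (-1.56). In endoderm-gated cells it stood at 14.8 CPM in the knockout library and 28.1 CPM in the control library (-0.89), and in endothelial-gated cells at 11.6 CPM in the knockout library and 18.3 CPM in the control library (-0.61). The endothelial value only just passes 1.5-fold, and it lay between -0.61 and -0.52 over the settings tried. Ier2 was lower in endoderm-gated, mesenchymal-gated and ungated knockout cells, with log2 ratios of -0.61, -0.73 and -0.90, and had a log2 ratio of -0.38 in endothelial-gated cells. Corrected for length and GC content, the Ier2 log2 ratio was -0.29 in endoderm-gated, -0.38 in mesenchymal-gated and -0.53 in ungated cells, each short of 1.5-fold.

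Endothelial-gated knockout cells had more Klf2 than endothelial-gated control cells by a small margin, 160 CPM against 104 CPM, a log2 ratio of 0.61, just past 1.5-fold. The share of thinned cells with a UMI was nearly equal (55.4% in knockout cells and 53.3% in control cells), and the mean thinned count was 2.35 UMIs in knockout cells and 1.52 UMIs in control cells. With the gate limits halved the log2 ratio was 0.51, and with at most 5% mitochondrial UMIs it was 0.39, so the 1.5-fold call rests on these limits. Fos (6.63 CPM in knockout cells and 13.2 CPM in control cells, log2 ratio -0.89) and Junb (49.9 CPM in knockout cells and 82.1 CPM in control cells, -0.71) were lower in endothelial-gated knockout cells, and Egr1 (0.06) and Atf3 (-0.12) were within 1.5-fold. The Junb log2 ratio was -0.42 with the length and GC correction, short of 1.5-fold.

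In endoderm-gated cells Klf4, Atf3, Klf6 and Klf2 were higher in the knockout. Of the states compared, Klf4 reached 1.5-fold there alone. So did Atf3, which was under 5 CPM in mesenchymal-gated and ungated cells of both libraries. Klf6 was also higher in mesenchymal-gated and ungated cells, and Klf2 in endothelial-gated cells. Klf4 stood at 47.1 CPM in knockout cells (43.0 to 51.6) and 14.1 CPM in control cells (11.3 to 17.2), a log2 ratio of 1.68, and 41.8% of thinned knockout cells and 19.4% of thinned control cells had a UMI. Atf3 stood at 19.3 CPM in knockout cells (16.7 to 22.2) and 6.50 CPM in control cells (4.70 to 8.75), a log2 ratio of 1.44. The shares of thinned cells with an Atf3 UMI overlapped in counting error, 13.7% in knockout cells (9.09 to 19.6) and 9.68% in control cells (4.52 to 17.6). Mean thinned counts of Atf3 were 0.231 UMIs in knockout cells and 0.129 UMIs in control cells. Klf6 stood at 200.02 CPM in knockout cells and 95.7 CPM in control cells, and Klf2 at 8.42 CPM in knockout cells and 3.48 CPM in control cells. The makeup of the gated cells differed as well: Hhex, a factor of foregut and visceral endoderm, stood at 21.9 CPM in knockout cells and 97.9 CPM in control cells, and Lgmn, a lysosomal protease, at 887 CPM in knockout cells and 578 CPM in control cells. Zbtb16 was not absent from endoderm-gated cells of the library labelled knockout, with 10.7 CPM there and 36.6 CPM in the control counterparts. The part of these differences in the 4 higher genes was not tested.

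**Figure D3:**
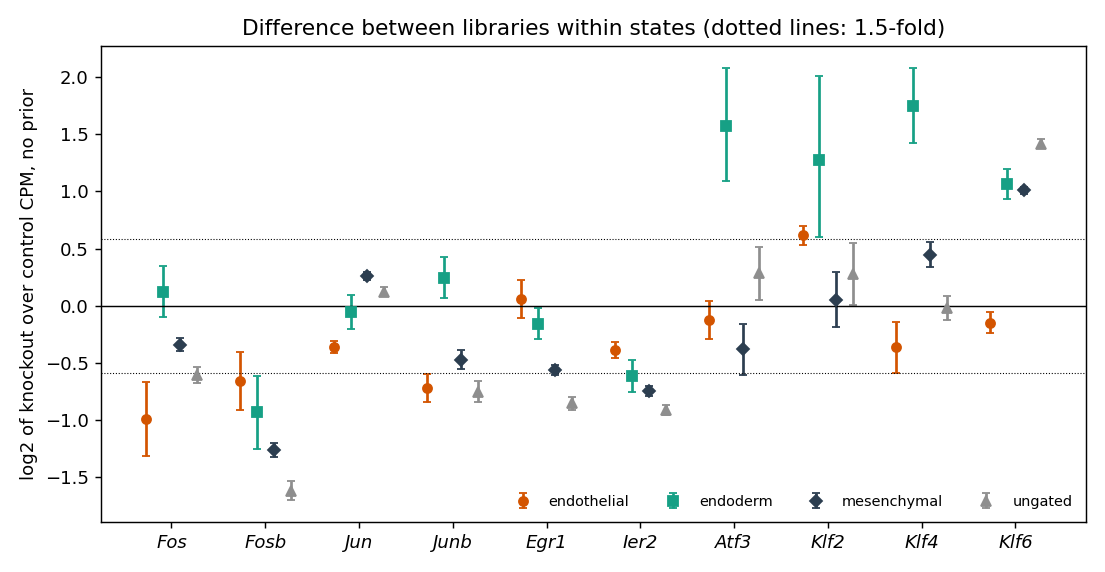
Log2 ratio of knockout over control CPM, without the prior of 1 CPM, for the 10 genes within 4 states, with exact 95% counting intervals and dotted lines at 1.5-fold. Fosb lies below 0 in all 4 states, Klf6 lies above the upper line in all but endothelial-gated cells, and Klf4 and Atf3 lie highest in endoderm-gated cells.

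The last comparison asked whether the genes were found in the same cells. For each of the 45 pairs the share of thinned cells with a UMI of both genes was divided by the product of their single shares, which is the share expected if they were detected independently. The ratio was above 1 for 35 pairs in the knockout library and 36 in the control library, but its median was 1.04 in the knockout library and 1.06 in the control library, so most pairs lay close to independence. A knockout cell had a mean of 3.53 of the 10 genes and a control cell 4.08. At least 6 genes were found in 9.03% of knockout cells, where the product of the shares gives 5.85%, and in 19.3% of control cells, where it gives 14.5%. At the other end 25.1% of knockout cells had at most 2 of the genes, where the product gives 20.5%, and 17.7% of control cells, where it gives 12%. At 15000 UMIs a cell both tails were fuller than the product of the shares, as the plot of cells by number of genes shows. Without thinning the observed share with at least 6 genes was 1.14 times the product in the knockout library and 0.977 times, below the product, in the control library.

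**Figure D4:**
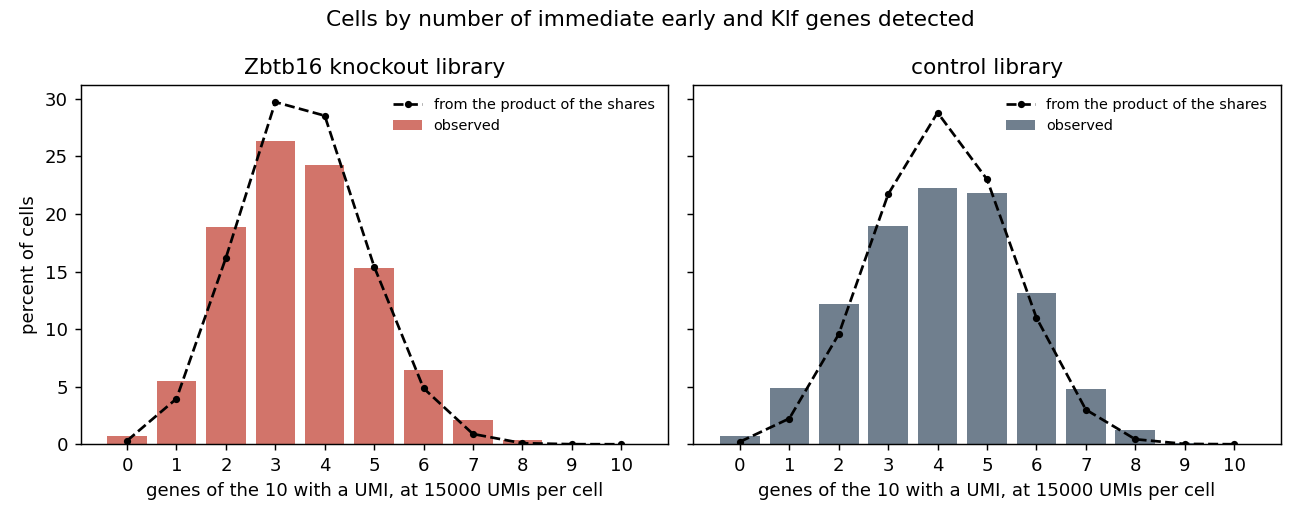
Percent of cells (bars) by the number of the 10 genes with a UMI after thinning to 15000 UMIs, the Zbtb16 knockout on the left and the control on the right, with the distribution given by the product of the shares (dashed line). In both libraries the bars stand above the line at 2 or fewer genes and at 6 or more.

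The pairs with the closest counts differed between the libraries in order. Pearson r of log counts is given over the 9449 knockout cells and the 6354 control cells, which share a library and a thinned depth, as a description. In knockout cells Junb and Egr1 (0.16), Junb and Ier2 (0.16) and Ier2 and Klf2 (0.15) came first, and the same pairs had 0.15, 0.14 and 0.11 in control cells. Fos and Fosb, Fos and Egr1, and Fosb and Egr1 had 0.11, 0.14 and 0.10 in knockout cells, and 0.22, 0.22 and 0.20 in control cells, where they came first. All of these values are weak, and counts are sparse, so no pair is singled out from its r. Atf3 and Klf2, each found in few cells, were found together in 1.06% of knockout cells, 3.29 times the product of their shares, and in 1.23% of control cells, 2.96 times the product. Both genes were high in endothelial-gated cells. Within those cells the pair was found at 0.963 times the product in the knockout library and 1.07 times in the control library, close to independence. At least 6 genes were found in 23.4% of endothelial-gated knockout cells (product 22.9%) and 38.6% of endothelial-gated control cells (product 34.7%). At most 2 genes were found in 5.74% of endothelial-gated knockout cells (product 4.15%) and 4.04% of endothelial-gated control cells (product 1.65%). In mesenchymal-gated cells at least 6 genes were found in 8.15% of knockout cells (product 5.37%) and 15.7% of control cells (product 11.7%). In ungated cells the shares were 7.15% in the knockout library (product 3.81%) and 16.2% in the control library (product 11.6%). Cardiomyocyte-gated control cells had 23.3% (product 17.9%). Inside the endothelial gate Klf2 and Klf4 had the highest r in each library, 0.24 over 401 knockout cells and 0.31 over 272 control cells.

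**Figure D5:**
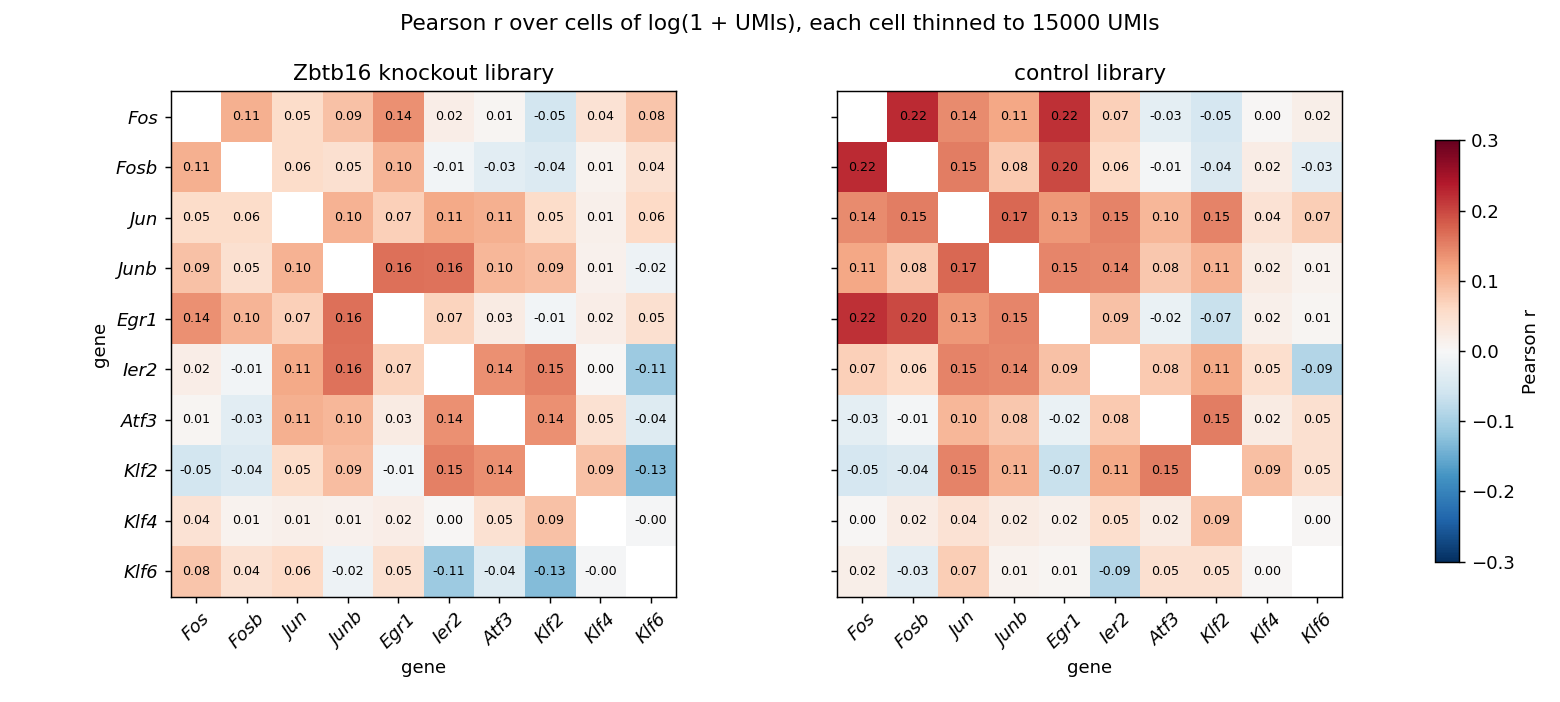
Pearson r over cells between the log counts of each pair of the 10 genes after thinning to 15000 UMIs, the Zbtb16 knockout on the left and the control on the right. Pairs among Fos, Fosb and Egr1 lie at 0.10 to 0.14 in the knockout and at 0.20 to 0.22 in the control, where they are the strongest block, and Klf6 with Klf2 is the lowest value in the knockout library (-0.13).

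Genes outside the set were ranked by the lower of their 2 r values, 1 per library, with the summed log counts of the 10 genes, among the 5812 genes that reached 20 CPM in each library. The 10 with the highest values were Jund (0.23 in the knockout, 0.31 in the control), Ctla2a (0.21 in the knockout, 0.21 in the control), Ramp2, Rhob, Elk3, Gnai2, Kdr, Phlda1, Dusp6 and Klf7. For Klf2 alone the 5 with the highest values were Ramp2 (0.39 in the knockout, 0.43 in the control), Ctla2a (0.38 in the knockout, 0.42 in the control), Elk3, Kdr and Dppa5a. Ramp2, a subunit of the adrenomedullin receptor, stood at 1237 CPM in endothelial-gated knockout cells and 1054 CPM in endothelial-gated control cells, and Dppa5a, a pluripotency marker that was part of its gate, at 2524 CPM in pluripotent-gated knockout cells and 4079 CPM in pluripotent-gated control cells. So the genes nearest to Klf2 were again genes of those cell states.

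The other genes of the pathways were read as lists over all cells, against the same background of 12.7% higher and 6.75% lower. Of 14 other Klf and Sp genes at 5 CPM or more, 8 were higher in the knockout and 0 lower, with a median log2 ratio of 0.65. Klf3 stood at 102 CPM in knockout cells and 62.0 CPM in control cells, Sp1 at 62.2 CPM in knockout cells and 38.3 CPM in control cells, and Klf14 at 8.15 CPM in knockout cells and 1.69 CPM in control cells. Klf13 was level, with 83.2 CPM in knockout cells and 84.7 CPM in control cells. With the length and GC correction 4 of the 14 were higher, so the count depends on it.

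Of 23 other immediate early genes 3 were higher and 4 lower, among them Zfp36l2, an mRNA decay factor (76.8 CPM in knockout cells and 38.8 CPM in control cells), the kinase gene Plk2 (123 CPM in knockout cells and 75.0 CPM in control cells) and Gadd45a, a growth arrest gene (13.3 CPM in knockout cells and 24.7 CPM in control cells). Of 5 other AP-1 genes only Fosl2 was higher (9.49 CPM in knockout cells and 3.51 CPM in control cells), and Jund stood at 178 CPM in knockout cells and 264 CPM in control cells, a log2 ratio of -0.57 short of 1.5-fold. Of 23 upstream kinases and factors Rps6ka3 was higher (29.5 CPM in knockout cells and 16.7 CPM in control cells) and Mef2c lower. Of 10 ERK feedback genes Spry1 was higher (16 CPM in knockout cells and 8.35 CPM in control cells) and Dusp5 lower (7.40 CPM in knockout cells and 14.5 CPM in control cells). Of 10 heat shock genes Bag3, a co-chaperone, was higher (47.6 CPM in knockout cells and 29.9 CPM in control cells) and 0 were lower.

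Within endothelial-gated cells 8 of 25 other immediate early genes were lower in the knockout and 0 higher, where 6.15% of all genes tested were lower. The length and GC correction was not run for this list within the gate. Sgk1, a kinase induced by serum and glucocorticoids, stood at 67.2 CPM in knockout cells and 219 CPM in control cells, and the nuclear receptor gene Nr4a1 at 3.93 CPM in knockout cells and 16.8 CPM in control cells. Of the ERK feedback genes, the phosphatase genes Dusp1 (55.8 CPM in knockout cells and 91 CPM in control cells) and Dusp5 (10.9 CPM in knockout cells and 27.4 CPM in control cells) were lower and Spry1 was higher. Of 10 endothelial genes known to lie downstream of KLF2, 1 was higher and 1 lower, where 10.7% of all genes tested in endothelial-gated cells were higher and 6.15% lower. These counts are near the background, and nothing is read from them. Thbd, which encodes thrombomodulin, stood at 12.6 CPM in knockout cells and 7.19 CPM in control cells. Edn1, which encodes endothelin-1, stood at 9.13 CPM in knockout cells and 42.6 CPM in control cells. S1pr1 (66.5 CPM in knockout cells and 69.6 CPM in control cells) and Eng (58.1 CPM in knockout cells and 79.1 CPM in control cells) stayed within 1.5-fold.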

How the data were processed

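UMIs had been counted per gene and barcode. The deposited matrices hold raw UMI counts, unfiltered, written by Cell Ranger 4 per the file headers. R 4.1.1, Cell Ranger and the builds GRCm39 and mm39 are named per the submitters' processing notes. Trypsin was used to detach the cells, and libraries were made with the MGI DNBelab C Series kit and read on DNBSEQ, per the labels' protocols. The knockout matrix held 357324373 UMIs, of which 96.0% lay in cells, and the control matrix 308465930, of which 94.8% did.

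The 10 genes, the gene lists and the tests were chosen with earlier results of these data known. UMIs were summed per library and state (Python 3.11.15, numpy 2.4.6, scipy 1.17.1), with exact Poisson intervals for sums and exact Clopper-Pearson intervals for shares. Genes with at least 5 CPM in either group were compared for size, as the ratio of CPM plus 1. The sum limits of the gates were 500 CPM (endothelial, pluripotent, mesenchymal), 1000 CPM (endoderm) and 2000 CPM (cardiomyocyte, haematopoietic), and at least 3 markers were required. Doublets were not removed, and a limit on UMIs was tried instead. All 10 genes are named, with up to 4 measured genes of each list by mean CPM, the 2 of largest ratio, and the genes most alike by r; from these a selection is printed. Length and GC content came from GENCODE M21, and were corrected by lowess (statsmodels 0.14.6, fraction 0.3). TMM factors came from edgeR 4.0.16, as an alternative scale only. The scripts were tested on simulated data.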

Additional observations from a re-analysis of the deposited data

Results flagged for a closer look

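The difference between knockout and control had opposite signs in some pairs of states, and the difference between states was not tested, since there was 1 library per genotype. For Atf3 the log2 ratio was 1.44 in endoderm-gated cells and -0.28 in mesenchymal-gated cells, 1.71 apart. The mesenchymal-gated levels, 2.34 CPM in knockout cells and 3.04 CPM in control cells, are under the 5 CPM used for comparisons of size, so that ratio is a value only. Klf4 had a log2 ratio of 1.68 in endoderm-gated cells and -0.35 in endothelial-gated cells, 2.02 apart. Klf6 had a log2 ratio of 1.40 in ungated cells and -0.15 in endothelial-gated cells, 1.55 apart. The endoderm-gated cells of the knockout library had a higher median mitochondrial share (6.09%) than those of the control library (4.90%), and with at most 5% mitochondrial UMIs 20 knockout cells and 56 control cells were left there, with a log2 ratio of 2.91 for Atf3 and 2.43 for Klf4.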

How the results depend on the processing

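No paired analysis was possible because each genotype had 1 library, so no replicate could be left out either. In all cells Fosb stayed lower and Klf6 higher in the knockout under each of the 12 alternatives run, with log2 ratios of -1.59 to -1.16 for Fosb and 0.86 to 1.45 for Klf6. The number of genes lower in all cells was 4, and it was 2 with a minimum of 30000 UMIs (Junb and Egr1 short), 2 with the length and GC correction (Junb and Ier2 short) and 1 with equal weight per state. It was 5, with Fos added, without cells above 2 times the median UMIs (Fos log2 ratio -0.59) and with equal weight per cell (-0.65). The number higher was 2, it was 3 with equal weight per state (Klf4 at 0.59), and it was 1, without Klf2, under each of 5 settings: without the 10% of cells with the largest summed level, without cells above 2 times the median UMIs, with a prior of 5 CPM, without pluripotent-gated cells, and without endothelial-gated and pluripotent-gated cells. The 8 other Klf and Sp genes higher became 4 with a filter of 20 CPM and 4 with the length and GC correction. The Klf2 ratio of endothelial-gated to mesenchymal-gated cells was 63.0 in the knockout and 42.7 in the control. It was 53.3 in the control with gate limits halved, 52.2 in the knockout and 34.1 in the control with limits doubled, 42.1 in the knockout and 30.2 in the control with cells of more than 1 gate counted, and 117 in the knockout and 59.6 in the control with 5% free RNA subtracted. The ratio of pluripotent-gated to mesenchymal-gated knockout cells, 95.6, was 78.5 with limits doubled, 66.6 with cells of more than 1 gate counted, 108 with at most 5% mitochondrial UMIs and 178 with 5% free RNA subtracted. The number of genes higher within endothelial-gated cells was 0 with gate limits halved and 0 with at most 5% mitochondrial UMIs. The number lower was 1 within endoderm-gated cells with a minimum of 30000 UMIs, 1 with at most 5% mitochondrial UMIs and 1 with the length and GC correction, which also left 2 within ungated cells. The ratio of observed to product shares for cells with at least 6 genes was 1.54 in the knockout and 1.33 in the control. It was 1.96 in the knockout and 1.65 in the control when thinned to 10000 UMIs, and 1.14 in the knockout and 0.977 in the control without thinning. No result changed direction past 1.5-fold under the settings run, and beyond what a setting does by its own construction the cause was not tested. The length and GC correction, equal weight per state and the settings that leave out gated cells were added after the data were seen.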

Other observations

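The 28 knockout cells of the haematopoietic gate had low levels of most of the 10 genes. Fos stood at 7.36 CPM there, Egr1 at 10.7 CPM and Klf6 at 18.1 CPM, against 32.1, 54.4 and 233 CPM in mesenchymal-gated knockout cells, while Junb stood at 49.5 CPM against 16.6 CPM. No control cell passed that gate.

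Barcodes with 10 to 100 UMIs, which hold free RNA rather than cells, had more Fos than the cells of their own library in both cases. Fos stood at 46.7 CPM there in the knockout (40.3 to 53.7) against 29.5 CPM in knockout cells, and at 82.3 CPM in the control (74.8 to 90.4) against 43.8 CPM in control cells. Junb was likewise higher in free RNA, with 27.9 CPM against 20.4 CPM in the knockout and 41.9 CPM against 31.1 CPM in the control. Fosb went the other way, with 10.3 CPM in free RNA against 18 CPM in cells of the knockout and 36.1 CPM against 51.3 CPM in those of the control.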
